A study of Mus musculus with 12 samples.

Results

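Transcripts of the phagocyte NADPH oxidase and of inducible nitric oxide synthase were examined in dendritic cells (DCs) derived from mouse bone marrow. The 6 genes were *Cybb*, *Cyba*, *Ncf1*, *Ncf4* and *Rac2* of the oxidase and *Nos2*, chosen by their symbols among the 55471 genes of the count table. Each symbol matched 1 gene, and all 6 were among the 18228 genes with enough counts to be tested. RNA was sequenced from DCs grown from C57BL/6 bone marrow with GM-CSF, the growth factor that drives this culture. All cells carried a retrovirus with a short hairpin RNA (shRNA) and had been sorted on the human CD8 reporter of that vector. The control hairpin (shControl) targeted firefly luciferase. The other hairpin (sh*Ppargc1b*) targeted *Ppargc1b*, whose product PGC-1β is a co-activator of transcription. Cells were left unstimulated or received IFN-β for 6 h, which gave 4 groups of 3 libraries. The labels did not state which *Ppargc1b* hairpin was used, nor whether libraries of a group came from separate cultures or animals. P-values therefore measure the spread between these libraries, which may be technical.

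The phagocyte oxidase moves electrons from NADPH across the membrane to oxygen and so makes superoxide. Its catalytic core is flavocytochrome b558, made of gp91phox (*Cybb*) and p22phox (*Cyba*), and p22phox stabilises gp91phox. Cytosolic subunits, among them p47phox (*Ncf1*) and p40phox (*Ncf4*), join the core upon activation, together with a Rac GTPase, of which *Rac2* is the form of blood cells. Inducible nitric oxide synthase (*Nos2*) makes nitric oxide from arginine, needs tetrahydrobiopterin and calmodulin, and is regulated largely through the amount of its transcript. Interferons and microbial products are known inducers of *Nos2* in myeloid cells, and arginase competes with the enzyme for arginine.

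Library totals ranged from 49.9 to 77.7 M counts (M, 1000000), and every member had at least 1946 counts in every library. *Ppargc1b* fell from 34.5 to 19.4 counts per 1000000 counts of the library (CPM) in unstimulated cells and from 27.8 to 18.7 CPM with IFN-β, while *Isg15*, an interferon-stimulated gene, rose from 9.62 to 300.3 CPM in shControl cells. DC markers were present in unstimulated shControl cells (*Itgax* 949 CPM, *H2-Aa* 1041 CPM), as were the macrophage markers *Csf1r* (1226 CPM) and *Cd68* (458 CPM). The DC marker *Flt3* was at 1.94 CPM. CPM were scaled with trimmed-mean (TMM) factors, which were 1.07 to 1.09 without and 0.914 to 0.941 with IFN-β. Without these factors, with library totals alone, the median gene changed with IFN-β by -0.27 on the log2 scale in shControl (TMM -0.03) and by -0.22 in sh*Ppargc1b* cells (TMM -0.02).

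The 6 genes lie on 5 chromosomes (GRCm38). *Cybb* (ENSMUSG00000015340) is at chrX:9435252-9487771 on the minus strand, *Cyba* (ENSMUSG00000006519) at chr8:122424776-122432930 on the minus strand and *Ncf1* (ENSMUSG00000015950) at chr5:134220053-134229625 on the minus strand. *Ncf4* (ENSMUSG00000071715) is at chr15:78244801-78262580 on the plus strand and *Rac2* (ENSMUSG00000033220) on the same chromosome at chr15:78559167-78572783 on the minus strand. *Nos2* (ENSMUSG00000020826) is at chr11:78920787-78960254 on the plus strand. *Ncf1* shares 408 exon bases with *Gtf2ird2* on the opposite strand, which had 3939 counts over all 12 libraries together. Whether counting used strand was not stated, so reads in those bases cannot be assigned to one of both genes with certainty.

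Promoters are shown for the genes with a RefSeq window at hand, *Cybb*, *Ncf1* and *Cyba*, so that the sequence before 3 subunits can be read beside their levels. They are the 250 bases before the start of the gene in RefSeq (GRCm38.p6), written 5′ to 3′ on the strand of the gene. Capitals mark matches to the motifs searched.
Cybb: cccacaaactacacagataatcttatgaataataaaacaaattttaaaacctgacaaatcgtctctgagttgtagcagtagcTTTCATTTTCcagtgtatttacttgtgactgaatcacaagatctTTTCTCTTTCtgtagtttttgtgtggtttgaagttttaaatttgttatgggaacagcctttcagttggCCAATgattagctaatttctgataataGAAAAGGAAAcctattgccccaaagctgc
Ncf1: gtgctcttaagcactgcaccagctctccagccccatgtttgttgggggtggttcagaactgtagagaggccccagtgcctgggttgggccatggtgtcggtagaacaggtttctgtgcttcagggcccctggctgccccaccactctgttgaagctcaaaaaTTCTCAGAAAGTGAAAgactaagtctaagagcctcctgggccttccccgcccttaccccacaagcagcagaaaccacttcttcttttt
Cyba: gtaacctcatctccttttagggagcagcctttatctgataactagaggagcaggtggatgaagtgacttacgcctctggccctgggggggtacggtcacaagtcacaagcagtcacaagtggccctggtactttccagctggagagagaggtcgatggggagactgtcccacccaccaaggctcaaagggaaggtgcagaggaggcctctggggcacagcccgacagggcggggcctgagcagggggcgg
The *Cybb* window (chrX:9469325-9469574, minus strand) lies within the longer GENCODE gene and outside its exons. It holds the interferon regulatory factor (IRF) core, GAAA repeated after any 2 bases, at 3 places, 29 to 20, 124 to 115 and 168 to 159 bases before the start, the last 2 on the opposite strand. A CCAAT box lies 56 to 52 bases before the start. The *Ncf1* window (chr5:134229626-134229875, minus strand) holds a STAT element, TTCNNNGAA, 88 to 80 bases before the start, which overlaps an IRF core 82 to 73 bases before it. No motif searched matched in the *Cyba* window (chr8:122432941-122433190, minus strand). Among 32851 windows of the same length, 2.98% held the IRF core, 7.02% TTCNNNGAA and 33.8% CCAAT on either strand. The other motifs searched were GAGGAA (PU.1 core, 23.3% of windows), GGG and TTCC around any 3 bases (NF-κB, 4.65%), TNAAGGTCA (a response element of estrogen-related receptors, 1.14%) and GCGCA and GCGC around any 1 base (NRF1, 3.74%), which matched in none of these 3 windows. A match is a description of letters and not of binding.

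Per length, the oxidase core was far more abundant than the synthase at steady state. In CPM per kilobase of exon (FPKM), unstimulated shControl cells had 499.6 ± 23.9 of *Cybb*, 193 ± 6.48 of *Cyba*, 133 ± 2.78 of *Ncf1*, 54.5 ± 3.06 of *Rac2*, 41.4 ± 1.61 of *Ncf4* and 10.6 ± 2.43 of *Nos2* (SD, n = 3). *Cybb* alone took 0.250% to 0.341% of the counts of a library and ranked 17th to 31st among all genes by counts. With IFN-β, *Nos2* stood at 80.9 ± 6.60 FPKM in shControl and 70.5 ± 18.1 FPKM in sh*Ppargc1b* cells, above *Ncf4* (58.9 ± 3.06 and 56.4 ± 1.31 FPKM) and *Rac2* (47.1 ± 3.54 and 40.1 ± 2.20 FPKM) in the order of means. In sh*Ppargc1b* cells with IFN-β the *Nos2* libraries, at 54.8, 90.3 and 66.6 FPKM, overlapped those of *Ncf4*, so this pair did not differ beyond its spread. In unstimulated sh*Ppargc1b* cells *Ncf4* (47.1 ± 2.54 FPKM) and *Rac2* (43.5 ± 1.91 FPKM) stood in the opposite order to control, with the lowest *Ncf4* library at 44.95 and the highest *Rac2* library at 44.87 FPKM. The order *Cybb*, *Cyba*, *Ncf1* held in all 4 groups with no overlap.

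**Figure D1:**
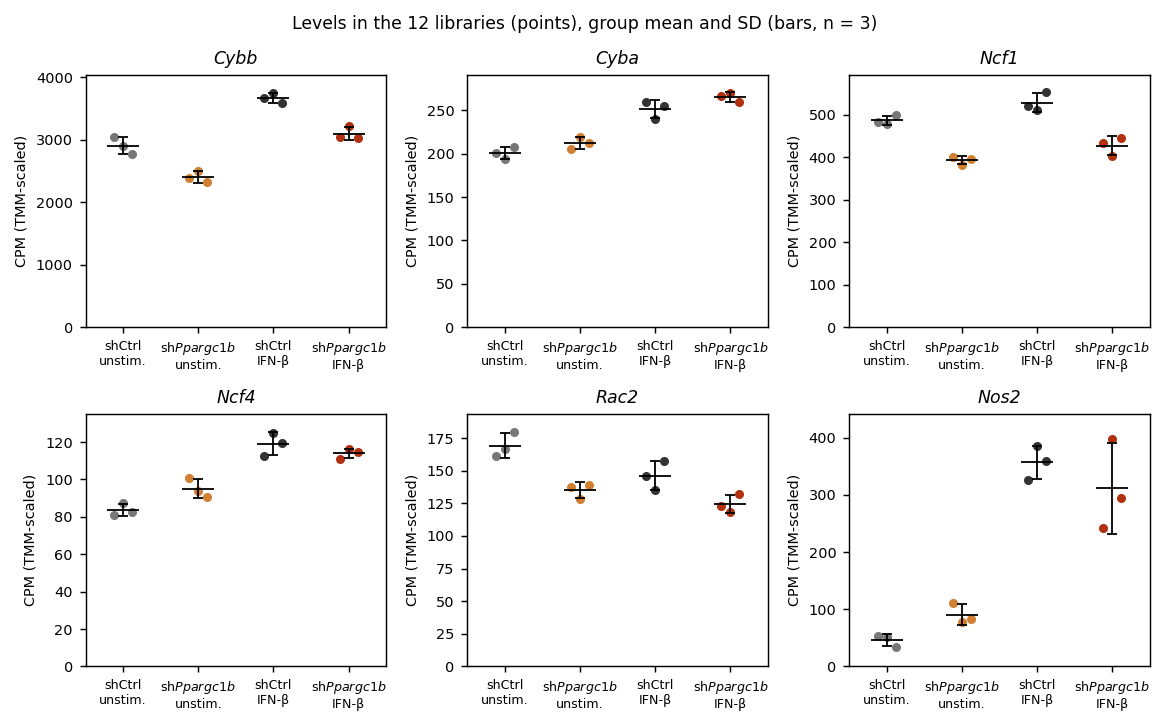
Level of each gene in CPM (vertical axes, each starting at 0 with its own scale) in the 12 libraries (points), with the group mean and SD (bars, n = 3). *Cybb*, *Ncf1* and *Rac2* sit lower in sh*Ppargc1b* than in shControl cells in both treatments, and *Nos2* lies at 34.5 to 111 CPM in untreated and at 242 to 398 CPM in treated libraries.

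To determine how these transcripts differed with the *Ppargc1b* knockdown at steady state, unstimulated sh*Ppargc1b* and shControl cells were compared. *Nos2* was higher, and 3 oxidase genes, *Cybb*, *Ncf1* and *Rac2*, were lower in sh*Ppargc1b* cells. *Ncf4* was slightly higher, and *Cyba* did not pass the test. Thus 5 of the 6 genes were called, 2 higher and 3 lower, where 23.6% of all genes tested were called (12.4% higher and 11.1% lower). In bulk RNA, fewer cells of a type and less RNA per cell cannot be told apart.

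*Nos2* was at 54.1, 51.8 and 34.5 CPM in unstimulated shControl and at 111, 78.0 and 82.7 CPM in unstimulated sh*Ppargc1b* libraries. Every sh*Ppargc1b* library was above every shControl library. The log2 fold change was 0.95 ± 0.18 (SE, edgeR adjusted p = 0.00125), which is 1.93-fold. This was the largest change among the 6 genes and also the one with the widest spread, with a coefficient of variation of 22.9% in shControl and 19.9% in sh*Ppargc1b* libraries.

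*Cybb* was at 3044, 2895 and 2767 CPM in shControl and at 2384, 2503 and 2317 CPM in sh*Ppargc1b* libraries, with no overlap. It fell by 0.27 ± 0.05 on the log2 scale (SE, edgeR adjusted p = 4.65e-04). Its partner *Cyba* was at 201, 194 and 207 CPM in shControl and at 205, 219.5 and 213 CPM in sh*Ppargc1b* libraries. The *Cyba* groups overlapped, and the log2 fold change of 0.08 did not pass (edgeR adjusted p = 0.186, 95% interval -0.01 to 0.17). The cytosolic organiser *Ncf1* was at 484, 479 and 499 CPM in shControl and at 402, 383 and 395 CPM in sh*Ppargc1b* libraries, with no overlap. It fell by 0.31 ± 0.04 on the log2 scale (SE, edgeR adjusted p = 1.0e-04).

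*Rac2*, which encodes the GTPase that switches the assembled oxidase on, was at 161, 167 and 179.5 CPM in shControl and at 138, 128 and 139 CPM in sh*Ppargc1b* libraries. The groups did not overlap, and the level fell by 0.32 ± 0.06 on the log2 scale (SE, edgeR adjusted p = 8.67e-04). In percent, the fitted changes of *Cybb*, *Ncf1* and *Rac2* were -17.2%, -19.3% and -20.1%. *Ncf4*, whose product binds a phosphoinositide of the phagosome membrane, was at 81.2, 87.3 and 82.4 CPM in shControl and at 101, 93.7 and 90.8 CPM in sh*Ppargc1b* libraries. It rose by 0.18 ± 0.05 on the log2 scale (SE, edgeR adjusted p = 0.0125). That call was lost without shControl unstimulated replicate 1 (edgeR adjusted p = 0.0554) or sh*Ppargc1b* unstimulated replicate 1 (0.0560).

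To test whether these differences were also present under interferon, both hairpins were compared in IFN-β-treated cells. *Cybb*, *Ncf1* and *Rac2* were again lower in sh*Ppargc1b* cells, and none of the 6 genes was higher. The 3 genes called compare with 24.2% of all genes tested (11.5% higher and 12.7% lower). *Cybb* was at 3667, 3738 and 3587 CPM in shControl and at 3044, 3213 and 3020.0 CPM in sh*Ppargc1b* libraries, with no overlap, and fell by 0.24 ± 0.05 on the log2 scale (SE, edgeR adjusted p = 0.00115). *Ncf1* was at 522, 510.3 and 553 CPM in shControl and at 434, 403 and 445 CPM in sh*Ppargc1b* libraries, also without overlap, and fell by 0.31 ± 0.04 (SE, edgeR adjusted p = 1.27e-04). *Rac2* was at 146, 135 and 157 CPM in shControl and at 123, 118 and 132 CPM in sh*Ppargc1b* libraries and fell by 0.23 ± 0.06 (SE, edgeR adjusted p = 0.00997). All *Rac2* libraries of sh*Ppargc1b* cells were below those of shControl cells, but the call was lost without shControl IFN-β replicate 3 (edgeR adjusted p = 0.0513).

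The other 3 genes did not pass the test between the hairpins under IFN-β. *Nos2* was at 327, 385 and 359 CPM in shControl and at 242, 398 and 294 CPM in sh*Ppargc1b* libraries. The sh*Ppargc1b* libraries lay on both sides of the shControl libraries, and the log2 fold change was -0.20 ± 0.17 (SE, edgeR adjusted p = 0.469, 95% interval -0.57 to 0.18). *Ncf4* was at 113, 125 and 119.7 CPM in shControl and at 111, 116 and 115 CPM in sh*Ppargc1b* libraries, with a log2 fold change of -0.06 (edgeR adjusted p = 0.394). *Cyba* was at 259.5, 239.6 and 255 CPM in shControl and at 267, 269.9 and 259 CPM in sh*Ppargc1b* libraries, with a log2 fold change of 0.08 (edgeR adjusted p = 0.211). Both pairs of groups overlapped.

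The response to IFN-β itself was then measured within each hairpin, from the same library values. In shControl cells all 6 genes were called, 5 higher and *Rac2* lower, where 48.2% of all genes were called (23.7% higher and 24.6% lower). In sh*Ppargc1b* cells 5 were called, all higher, against 42.6% of all genes (21.4% higher and 21.2% lower). With library totals alone the counts were 2 higher and 2 lower in control, and 3 higher and 1 lower in knockdown cells. In that setting 10892 and 9891 of the 18228 genes were called. The 2 responses and the 2 knockdown comparisons share libraries and are not independent of each other. *Nos2* rose most, by 2.93 ± 0.19 on the log2 scale or 7.62-fold in shControl cells (SE, edgeR adjusted p = 3.6e-09). In sh*Ppargc1b* cells the rise was 1.78 ± 0.18 or 3.44-fold (adjusted p = 9.9e-07). Lowest treated and highest untreated *Nos2* libraries stood at 327 against 54.1 CPM in shControl and at 242 against 111 CPM in sh*Ppargc1b* cells.

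*Ncf4* rose by 0.51 ± 0.05 (SE, edgeR adjusted p = 4.0e-07) in control cells and by 0.26 ± 0.05 (4.6e-04) in knockdown cells, and in neither hairpin did treated and untreated libraries overlap. *Cybb* rose by 0.34 (edgeR adjusted p = 1.92e-05) and by 0.36 (1.13e-05), respectively. *Cyba* rose by 0.33 (edgeR adjusted p = 9.96e-06) and by 0.32 (1.55e-05). *Ncf1* rose by 0.12 in each hairpin (edgeR adjusted p = 0.0410 and 0.0392). Leaving out 1 library ended this call for 7 of the 12 libraries in control (adjusted p up to 0.174, without shControl unstimulated replicate 2) and for 4 in knockdown cells (up to 0.168, without sh*Ppargc1b* IFN-β replicate 3), and with library totals alone the *Ncf1* values turned to -0.12 and -0.08, which is still above the median of all genes. *Rac2*, alone among the 6 genes, fell in shControl cells, by 0.21 (edgeR adjusted p = 0.00835), and its value in sh*Ppargc1b* cells was -0.12 (edgeR adjusted p = 0.131, and 0.0185 in a fit that blocks libraries by runs of consecutive codes) with overlapping libraries. This fall of *Rac2* no longer passed without shControl IFN-β replicate 2 (-0.14, edgeR adjusted p = 0.0920). With library totals alone, the rises of *Cybb* (0.10, edgeR adjusted p = 0.0648) and *Cyba* (0.09, 0.0962) in shControl and of *Ncf4* in sh*Ppargc1b* cells (0.06, 0.326) did not pass, and the fall of *Rac2* in sh*Ppargc1b* cells did (-0.32, 4.3e-04).

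**Figure D2:**
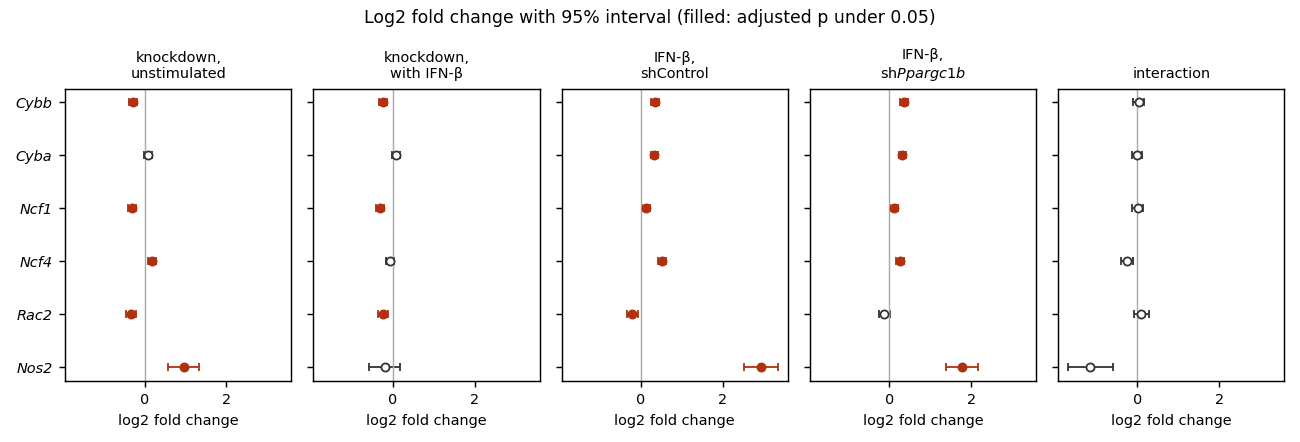
Log2 fold change (horizontal axes, one common scale) of each gene in the 5 comparisons, with the 95% interval (bars) and filled points where the edgeR adjusted p was under 0.05. *Nos2* shows 0.95 and -0.20 for the knockdown and 2.93 and 1.78 for IFN-β, and its interaction of -1.15 is an open point.

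Whether the knockdown changed the IFN-β response was tested by the interaction term, in which the effect in unstimulated cells is subtracted from that in treated cells. None of the 6 genes passed in edgeR, and 0.730% of all genes did (0.0603% higher and 0.669% lower). DESeq2 called 2 of the 6, *Nos2* and *Ncf4*, and 449 of the 18228 genes. The same 2 had an unadjusted edgeR p under 0.05, for which the share of all genes was not counted. In edgeR *Nos2* was closest to passing, with -1.15 ± 0.25 (SE, edgeR adjusted p = 0.0517, unadjusted 3.9e-04, 95% interval -1.69 to -0.61). It passed with DESeq2 size factors (edgeR adjusted p = 0.0460), with the DESeq2 test (0.0240), with library-code runs as a block (edgeR adjusted p = 0.0116) and without sh*Ppargc1b* IFN-β replicate 2, the highest *Nos2* library (0.00827), and reached 0.141 without shControl unstimulated replicate 3, the lowest. *Ncf4* had -0.25 ± 0.07 (SE, edgeR adjusted p = 0.130, DESeq2 adjusted p = 0.0391). For *Cybb*, *Cyba* and *Ncf1* the interaction was 0.03, -0.00 and 0.00, with 95% intervals from -0.11 to 0.17, -0.13 to 0.12 and -0.13 to 0.14. *Rac2* had 0.09 (95% interval -0.09 to 0.27).

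The balance of subunit transcripts was described as the ratio of their FPKM. *Cybb* over *Cyba* was 2.59 ± 0.18 in unstimulated shControl and 2.02 ± 0.06 in unstimulated sh*Ppargc1b* cells, and 2.61 ± 0.16 and 2.08 ± 0.05 with IFN-β (SD, n = 3). The ratio was lower in sh*Ppargc1b* libraries with no overlap in either treatment (exact two-sided permutation p = 0.1, the smallest that 3 against 3 allow), and treated and untreated libraries of one hairpin overlapped. *Ncf1* over *Ncf4* was highest in unstimulated shControl cells (3.22 ± 0.17), lower with IFN-β (2.45 ± 0.17) and lower in sh*Ppargc1b* cells without (2.28 ± 0.10) and with IFN-β (2.07 ± 0.13). Each of the 4 comparisons of this second ratio gave an exact two-sided permutation p of 0.1, and no ratio comparison could pass 0.05 by this test.

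**Figure D3:**
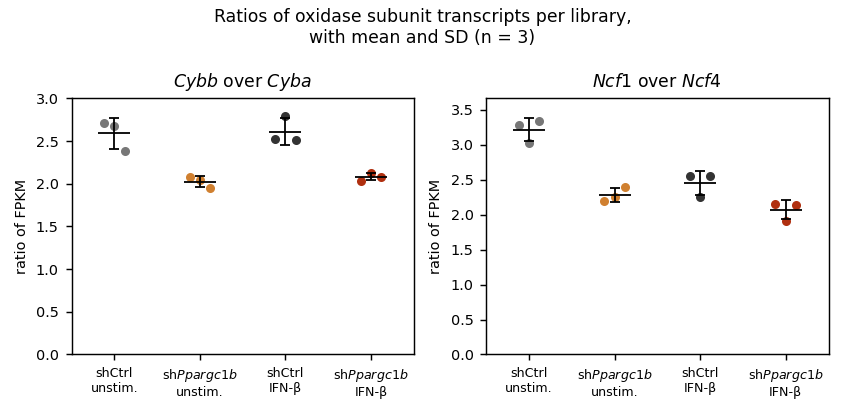
Ratio of FPKM of 2 pairs of oxidase subunits (vertical axes, starting at 0) in the 12 libraries (points), with the group mean and SD (bars, n = 3). *Cybb* over *Cyba* separates the hairpins, at 2.39 to 2.79 in shControl and 1.95 to 2.13 in sh*Ppargc1b* libraries, and not the treatments.

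Of 6 further partners of the oxidase 5 were tested, and *Rac1*, the ubiquitous Rac, was the one called for the knockdown, lower by 0.12 without (edgeR adjusted p = 0.0404) and by 0.13 with IFN-β (0.0197, and 0.0531 with library totals alone). With IFN-β, 2 of the 5 rose and 2 fell in each hairpin, where 48.2% and 42.6% of all genes were called. *Cybc1*, whose product helps flavocytochrome b558 to mature, rose by 0.50 and 0.51 in shControl and sh*Ppargc1b* cells (edgeR adjusted p at most 1.19e-06 for each), and *Rap1a*, a GTPase found with flavocytochrome b558, fell by 0.14 and 0.17 (0.0274 and 0.0147). The median of the 5 was -0.12 and -0.09 for the knockdown without and with IFN-β, against -0.00 and -0.01 over all genes. Of 7 genes of other NADPH oxidases *Nox1* alone was tested, at 0.408 CPM in unstimulated shControl cells and 1.20 CPM with IFN-β.

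Regulators of the oxidase moved in both directions. Among 17 of them, 3 were higher and 3 lower in unstimulated sh*Ppargc1b* cells, and 3 higher and 4 lower with IFN-β, where 23.6% and 24.2% of all genes were called. The list medians were 0.00 and -0.01, against -0.00 and -0.01 over all genes. *Prdx6*, a peroxiredoxin whose phospholipase activity aids oxidase activation, rose by 0.79 ± 0.09 without and by 0.54 ± 0.09 with IFN-β (SE, edgeR adjusted p = 2.11e-05 and 5.48e-04). *Hvcn1*, the proton channel that offsets the charge moved by the oxidase, rose by 0.26 and 0.27. *Pik3cd*, a leukocyte phosphoinositide 3-kinase, fell by 0.53 and 0.34, and *Mapk14*, the p38 kinase, by 0.24 and 0.13, the latter not called with library totals alone (edgeR adjusted p = 0.0871). *Arhgdib*, which holds Rac in the cytosol, fell by 0.17 and 0.23, and *Prkcb*, a kinase of p47phox, rose by 0.16 and 0.35. IFN-β in shControl cells raised 5 and lowered 7 of the 17 (48.2% of all genes were called). With library totals alone it raised 3 and lowered 12, where 10892 of the 18228 genes were called. *Prkcb* fell by 0.88 and *Prkca* by 0.81.

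Genes around arginine and nitric oxide were counted in the same way. Of 14 genes tested among 16, 5 were higher and 2 lower in unstimulated sh*Ppargc1b* cells, and 4 higher and 2 lower with IFN-β, where 23.6% and 24.2% of all genes were called. The list medians were 0.04 and 0.06, against -0.00 and -0.01 over all genes. *Arg1*, the arginase that competes with *Nos2* for arginine, fell from 1174 to 718 CPM without (log2 fold change -0.71 ± 0.18, SE, edgeR adjusted p = 0.00793) and from 614 to 299.5 CPM with IFN-β (-1.03 ± 0.18, 5.17e-04). *Ass1*, which rebuilds arginine from citrulline, rose from 430.3 to 589 CPM without (0.45 ± 0.05, edgeR adjusted p = 9.99e-06) and from 671 to 790 CPM with IFN-β (0.23 ± 0.05, 0.00298). The low *Arg2* rose from 3.06 to 4.68 CPM, and the arginine transporter *Slc7a1* from 22.5 to 30.2 CPM, without IFN-β. The major transporter *Slc7a2* was at 2613 and 2473 CPM and did not pass (edgeR adjusted p = 0.639).

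IFN-β also moved several of these genes. In shControl cells 6 of the 14 rose and 4 fell, and in sh*Ppargc1b* cells 5 rose and 3 fell (48.2% and 42.6% of all genes were called). With library totals alone the counts were 1 and 6, and 2 and 5, where 10892 and 9891 of the 18228 genes were called. *Ass1* rose by 0.64 in shControl and by 0.42 in sh*Ppargc1b* cells, while *Arg1* fell by 0.94 and 1.26 (edgeR adjusted p at most 3.84e-04 for each), and both kept these directions under that scaling. *Calm2*, one of the calmodulin genes, fell by 0.51 and 0.30 with IFN-β and by 0.63 and 0.42 with the knockdown. Among 5 genes of tetrahydrobiopterin tested of 6, *Gch1*, the rate-limiting enzyme, rose from 55.4 to 160.2 CPM in shControl (1.53 ± 0.06, SE, edgeR adjusted p = 2.92e-12) and from 65.5 to 155 CPM in sh*Ppargc1b* cells (1.25 ± 0.06, 4.67e-11). *Gch1* was also higher in unstimulated sh*Ppargc1b* cells, by 0.24 (edgeR adjusted p = 0.00519), and not with IFN-β (-0.04, 0.626). *Qdpr*, which regenerates the cofactor, fell by 0.25 and 0.21 with the knockdown.

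**Figure D4:**
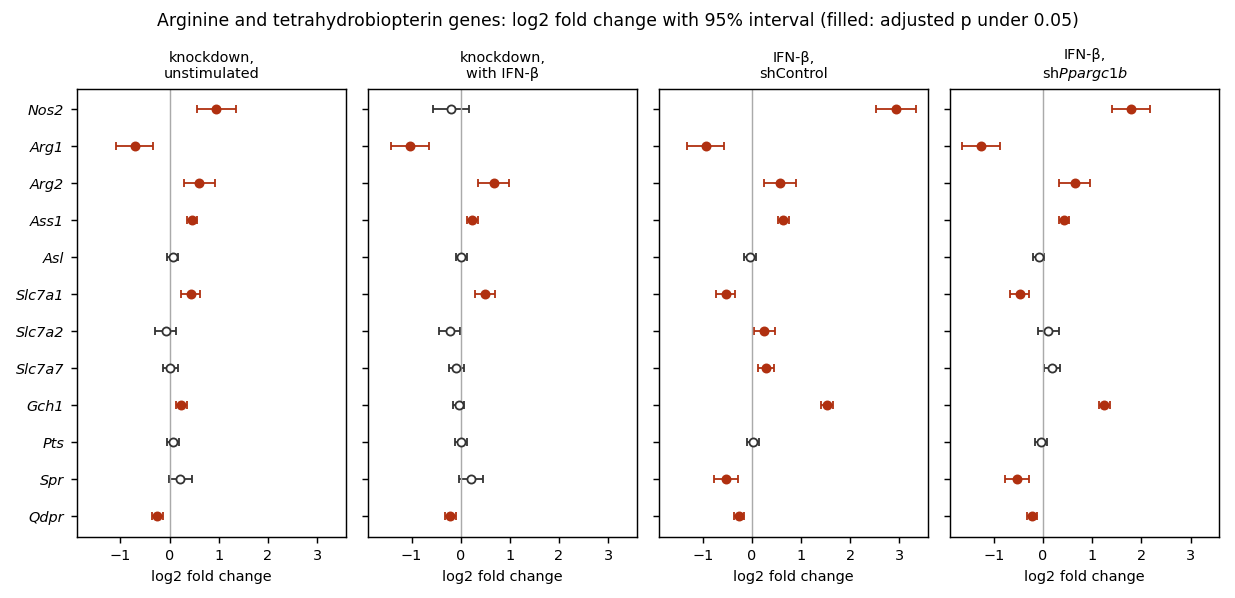
Log2 fold change (horizontal axes, one common scale) of *Nos2* and 11 genes of arginine and tetrahydrobiopterin metabolism in 4 comparisons, with the 95% interval (bars) and filled points where the edgeR adjusted p was under 0.05. *Arg1* lies left of 0 in all 4 panels, from -0.71 to -1.26, and *Ass1* right of 0, from 0.23 to 0.64.

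Of 12 transcription factors known to act at *Nos2* or *Cybb*, all 12 rose with IFN-β in control cells and 11 in knockdown cells. Over all genes 23.7% and 21.4% were called higher. With library totals alone 11 rose in each, and *Cebpb* was the exception (0.03 and -0.16). *Stat2* rose by 2.66 and 2.35, *Irf1* by 2.32 and 2.06 and *Irf9* by 0.99 and 0.81 in shControl and sh*Ppargc1b* cells. Their list medians were 0.51 and 0.46, against -0.03 and -0.02 over all genes. With the knockdown 5 were higher and 1 lower in unstimulated cells, and 2 higher and 4 lower with IFN-β. Over all genes 23.6% (12.4% higher and 11.1% lower) and 24.2% (11.5% higher and 12.7% lower) were called. The medians of the 12 for the knockdown were 0.09 and -0.08, against -0.00 and -0.01 over all genes. *Irf8* rose by 0.37 and 0.53 and *Hif1a* by 0.37 and 0.31, without and with IFN-β. *Stat2* was higher by 0.21 in unstimulated sh*Ppargc1b* cells, and *Irf1* was lower by 0.34 with IFN-β (edgeR adjusted p = 2.62e-05). With TMM scaling none of the 12 passed the interaction (*Stat2* -0.31, edgeR adjusted p = 0.0534). With DESeq2 size factors *Stat2* passed it (-0.32, edgeR adjusted p = 0.0445).

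Some markers of other cells differed between the hairpins, and their part in the results above was not tested. The summed level of 13 neutrophil markers was 707 to 939 CPM in unstimulated shControl and 1167 to 1462 CPM in unstimulated sh*Ppargc1b* libraries, and *Mmp8* alone rose from 713 to 1138 CPM. Of the 13, 3 were called higher and 0 lower, where 23.6% of all genes were called (12.4% higher). The defining neutrophil genes *Ly6g*, *Mpo*, *Elane* and *Prtn3* were at 0.223 to 0.412 CPM in unstimulated shControl cells. The summed level of 8 macrophage markers was 2530.5 to 2613 CPM in unstimulated shControl and 2367 to 2434 CPM in unstimulated sh*Ppargc1b* libraries. Of the 8, 1 was called higher and 3 lower, where 23.6% of all genes were called. Among these 3 *Mrc1* fell from 307 to 108 CPM. The median log2 fold change of the 8 markers was -0.01 without and -0.11 with IFN-β, against -0.00 and -0.01 over all genes. With IFN-β the neutrophil sum was 597 to 771 and 1025 to 1257 CPM and the macrophage sum 3005 to 3131 and 2732 to 2801 CPM in shControl and sh*Ppargc1b* libraries. The summed level of 9 DC markers was 2036 to 2367 and 2460 to 2710 CPM without IFN-β and 2200 to 2567 and 2685 to 2905 CPM with it. Of 8 tested, 4 and 5 were called higher, where 12.4% and 11.5% of all genes were. Mast cell or basophil markers summed to 12.7 and 23.9 CPM, eosinophil markers to 48.3 and 35.4 CPM, and lymphocyte and erythroid markers to under 1 CPM in unstimulated cells.

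Genes whose level followed each member most closely were named over the 12 libraries by Pearson's r of log2 CPM among 8751 genes. These libraries share the contrasts described above, so the values are a description. *Nos2* was followed by *Wdfy1* (r = 0.994), *Mdm2* (0.992) and *Gna13* (0.989), and *Ncf4* by *Mdm2* (0.983), *Fbxo38* (0.982) and *Nipa2* (0.980). For *Cybb* they were *Ptpro* (0.986), *Cyp4v3* (0.985) and *Mtm1* (0.984), for *Cyba* *Slc39a2* (0.977), *Tmem128* (0.976) and *Ccnd1* (0.974). *Ncf1* was followed by *Ace* (0.985) and *Aph1c* (0.983), and *Rac2* by *Rassf5* (0.974), *Tle5* (0.972) and *Stxbp2* (0.971). Within the 6 genes *Nos2* and *Ncf4* were closest (r = 0.98) and *Nos2* and *Rac2* farthest apart (-0.61), while *Cybb* and *Cyba*, the pair of the membrane core, had r = 0.61.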

How the data were processed

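RNA-seq was analysed in 12 libraries of 4 groups, as the labels assign them. After depletion of ribosomal RNA, the authors sequenced read pairs and mapped them to mm10. The submitters' processing notes name Trim Galore 0.6.0 and STAR 2.7.8a, and the study's methods name GENCODE gene counting by STAR. The deposited values were raw counts per gene, not normalized, and all 12 value columns were used. Uniquely mapping read pairs alone are counted by this STAR option, which can undercount genes with near-identical copies. Positions were taken from GENCODE M21.

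Counts were filtered with filterByExpr (minimum count 10, minimum total 15), scaled by TMM and fitted with edgeR 4.0.16 in R 4.3.3, with 1 mean per group over all 12 libraries. The 18228 genes tested held 99.96% of counts. P-values of quasi-likelihood F-tests were Benjamini-Hochberg adjusted across the genes tested (threshold 0.05), and every adjusted p of a gene is from edgeR unless DESeq2 (1.42.0) is named. SE is the absolute log2 fold change over the square root of F. FPKM were computed from CPM and exon length, and log2 CPM used a prior count of 2. Scripts were checked on simulated counts. Replicates were numbered in record order and were not paired, except in the alternative with a block for runs of library codes. Interval and precision rest on depth (49.9 to 77.7 M counts) and on 3 libraries per group.

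The 6 genes, the gene lists and the rule for naming were chosen with earlier results of these data known. From each list were named, per comparison, up to 4 called genes with the largest change and the 2 with the most counts, as space allowed. For each member the 3 genes most like it were taken, among genes with a mean log2 CPM of at least 3. Some genes that these rules name are not reported here. Alternatives were other scalings, no filter on low counts, DESeq2, the 6 libraries of a contrast, a block for runs of library codes, a limit on the size of change, and leaving out each library.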

Additional observations from a re-analysis of the deposited data

Results flagged for a closer look

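*Isg15*, used above to check the treatment, had an interaction of -0.62 ± 0.13 (SE, edgeR adjusted p = 0.0489): the IFN-β response differed between the hairpins by the test of the difference itself. Its level rose from 9.62 to 300.3 CPM (log2 fold change 4.96) in shControl and from 13.4 to 272 CPM (4.34) in sh*Ppargc1b* cells. It was 0.48 higher in unstimulated sh*Ppargc1b* cells (edgeR adjusted p = 0.00336) and differed by -0.14 with IFN-β (0.256). With library totals alone the interaction was -0.58 and did not pass (edgeR adjusted p = 0.0735).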

How the results depend on the processing

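Of 564 recomputed values of single genes, 502 kept their direction and their side of the threshold, 36 lost the call, 10 gained it and 16 changed sign. The calls of *Cybb* and *Ncf1* for the knockdown and of *Nos2* for the knockdown in unstimulated cells and for IFN-β held under every alternative, apart from a limit on size for the first 2 genes. A required absolute log2 fold change of 0.5 left 1 gene called for the knockdown without IFN-β, 0 with it, 2 for IFN-β in control and 1 in knockdown cells. For the interaction 1 gene was called with DESeq2 size factors, 1 with every gene of at least 1 count, 1 with a block for runs of library codes and 2 by DESeq2. Leaving out 1 library gave 4 to 5 genes called for the knockdown without and 2 to 3 with IFN-β, 5 to 6 for IFN-β in control and 4 to 5 in knockdown cells, and 0 to 1 for the interaction. Library totals alone turned *Ncf1* to -0.123 (edgeR adjusted p = 0.0307) for IFN-β in shControl and -0.0822 (0.148) for that in sh*Ppargc1b* cells. The *Ncf1* call for IFN-β was lost without 7 libraries in turn in control (up to 0.174, without shControl unstimulated replicate 2) and without 4 in knockdown cells (up to 0.168), and also with every gene of at least 1 count (0.103 and 0.145).

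Interactions near 0 changed sign: *Cyba* to 0.0313 with library totals and over -0.0556 to 0.0404 when 1 library was left out, *Cybb* over -0.0130 to 0.0822, and *Ncf1* to -0.0010 with DESeq2 size factors, -0.0050 with every gene, -0.0011 by DESeq2 and over -0.0414 to 0.0389 when 1 library was left out. The *Nos2* interaction ranged from -1.38 to -0.95. With every gene of at least 1 count its adjusted p was 2.9e-54, where edgeR's prior degrees of freedom were infinite and the *Nos2* quasi-dispersion was 0.558 against 8.20. The same fit called *Nos2* lower for the knockdown with IFN-β (0.00293). With the block its adjusted p was 0.0116. The block joins 1 library of each group by runs of library codes, which the labels do not call a batch, and they give no replicate numbers to pair by. It moved the genes called among all genes from 4295 to 5041 for the knockdown without IFN-β and from 133 to 425 for the interaction. The interaction count over all genes was 84 with library totals, 151 with DESeq2 size factors, 449 by DESeq2, 525 with every gene and 36 to 271 without 1 library. With 3 libraries per group, small changes may be missed.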

Other observations

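Enzymes that supply NADPH, the electron donor of the oxidase and of *Nos2*, were not described above. Of 7 tested, 2 were higher and 1 lower in unstimulated sh*Ppargc1b* cells, and 1 higher and 1 lower with IFN-β. Over all genes tested 23.6% and 24.2% were called. *Idh1*, the cytosolic isocitrate dehydrogenase, fell from 612 to 438 CPM without (log2 fold change -0.48, edgeR adjusted p = 2.62e-05) and from 349 to 269 CPM with IFN-β (-0.38, 2.73e-04). *Me1*, the malic enzyme, rose from 7.62 to 10.7 CPM without (0.49, edgeR adjusted p = 0.0260) and from 7.03 to 9.70 CPM with IFN-β (0.46, 0.0385). *G6pdx*, which opens the pentose phosphate pathway, was higher by 0.18 without IFN-β (edgeR adjusted p = 0.0206) and by 0.06 with it (0.472). IFN-β lowered *Idh1* by 0.81 in shControl and 0.70 in sh*Ppargc1b* cells.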
